A study of Mus musculus with 6 samples.

Results

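The transcripts of 10 antioxidant enzymes were followed in RNA of crude heart mitochondria from Polrmt knockout and control mice. They were chosen by name, as the rows whose mouse Ensembl identifier maps to Sod1, Sod2, Prdx3, Prdx5, Gpx1, Gpx3, Gpx4, Cat, Txn2 or Txnrd2, and all 10 were found among the 39177 features of the count tables. Sod2, Prdx3, Prdx5, Gpx4, Txn2 and Txnrd2 were taken as the 6 mitochondrial enzymes, and Sod1, Gpx1, Gpx3 and Cat as the 4 other enzymes. Prdx5 and Gpx4 also make protein found outside mitochondria, and a part of Gpx1 protein and of Sod1 protein is found inside them.

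Polrmt encodes the RNA polymerase that transcribes mitochondrial DNA (mtDNA), and the series asks how it divides its work between making replication primers and expressing genes. The knockout group was 3 mice of genotype Polrmt -/- (L/L, cre), in which exon 3 of both loxP-flanked Polrmt alleles was removed by cre expressed from the muscle creatinine kinase promoter, as the labels spell it. The control group was 3 mice given as Polrmt +/+ (L/L), which carried the same loxP-flanked alleles and no cre. All were C57BL/6N mice aged 3 to 4 weeks, with 1 library of heart RNA per mouse. The promoter is active in muscle cells, so other cells of the heart are not targeted, and a crude mitochondrial preparation also holds cytosolic RNA. In RNA of such a preparation, fewer cells of a type and less RNA per cell cannot be told apart.

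The respiratory chain leaks electrons to oxygen, which forms superoxide. Superoxide dismutases turn superoxide into hydrogen peroxide, and peroxide is then removed by catalase, by glutathione peroxidases, which draw on glutathione, and by peroxiredoxins, which draw on thioredoxin and thioredoxin reductase. Heart muscle is rich in mitochondria and keeps separate sets of these enzymes in the matrix, the cytosol and the peroxisomes. Both reducing systems draw on NADPH. All 10 enzymes are encoded in the nucleus, so their genes are not templates of the deleted polymerase.

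Of the members, 4 are selenoproteins, in which a UGA codon that would otherwise end translation is read as selenocysteine, the residue of the active site. The codon is shown for these members because it sets them apart from the rest in a way the choice of genes did not use. The sequences below are the coding strand on GRCm38, from the GENCODE M21 transcripts, with 12 bases to either side and the TGA codon in capitals. The codon lies in a coding exon of Gpx4 (chr10:80054737-80054739, plus strand), of Txnrd2 (chr16:18477772-18477774, plus strand), of Gpx1 (chr9:108339451-108339453, plus strand) and of Gpx3 (chr11:54907256-54907258, plus strand).
Gpx4: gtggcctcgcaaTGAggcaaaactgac
Txnrd2: gtgactggttgcTGAggctaagtcacc
Gpx1: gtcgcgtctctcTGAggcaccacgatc
Gpx3: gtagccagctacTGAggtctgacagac
In each of the 4 sequences the base after the codon is g, and in Txnrd2 the codon is followed by 1 more codon, ggc, and then by the stop codon taa. None of the 4 selenoprotein transcripts was called higher or lower with TMM scaling, and 2 of them, Gpx1 and Txnrd2, were too sparse to be tested.

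Gene-assigned counts were between 1062030 and 1227997 per knockout library and between 2867067 and 3234729 per control library. mtDNA transcripts took 21.1% to 25.8% of them in knockouts and 79.5% to 83.5% in controls. Most of the nuclear counts lay at 5 loci. The other nuclear genes held 126339 to 164004 counts per knockout library and 76949 to 109351 per control library. The 10 members together held 201, 227 and 302 counts in knockout libraries 1 to 3, and 112, 135 and 161 counts in control libraries 1 to 3. Counting limits the precision at these depths, beside the spread between libraries: 3 counts of a gene correspond to between 1.14 and 2.51 CPM, the count relative to library size per 1e6 counts, computed on library sizes scaled by the trimmed mean of M-values (TMM). Polrmt itself had 2, 5 and 1 counts in knockouts and 3, 2 and 1 in controls, a scaled ratio of 0.851 with a 95% Poisson interval of 0.259 to 2.98 from 8 counts in knockouts and 6 in controls, too few to check the deletion or the labels. All 9 cardiomyocyte markers were detected, with a summed level of 3971 to 4455 CPM in knockouts and 4582 to 5423 CPM in controls.

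Of the 10 members, 8 passed the low-count filter and were tested with edgeR's quasi-likelihood test. Cat and Sod1 were higher in knockouts at an adjusted p under 0.05, 0 members were lower, and 6 were not called. Both called members belong to the 4 other enzymes, of which 3 were tested, and 0 of the 5 tested mitochondrial members were called; whether the mitochondrial and the other members differ in this was not tested. Over all 3363 tested genes, 6.66% were called higher and 6.78% lower. The filter asked for 5.19 to 6.00 counts in a knockout library and for 14.0 to 15.8 in a control library, because it followed total library size. The 8 tested members were over it in all 3 knockout libraries, Sod2 alone was also over it in all 3 control libraries, and Sod1 and Gpx4 were over it in no control library, so they were tested through the knockout libraries alone. DESeq2 called 0 of the members, and 108 genes higher and 72 lower among the 14236 it was given. At an unadjusted p under 0.05, edgeR had 3 members higher, Cat, Sod1 and Gpx4, and 0 lower. Over all tested genes edgeR had 12.2% higher and 12.9% lower at that level. DESeq2 had the same 3 members under 0.05 before adjustment, all higher in knockouts. Its share over all genes at that level was not counted, so the DESeq2 count cannot be read as support for the edgeR calls.

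**Figure D1:**
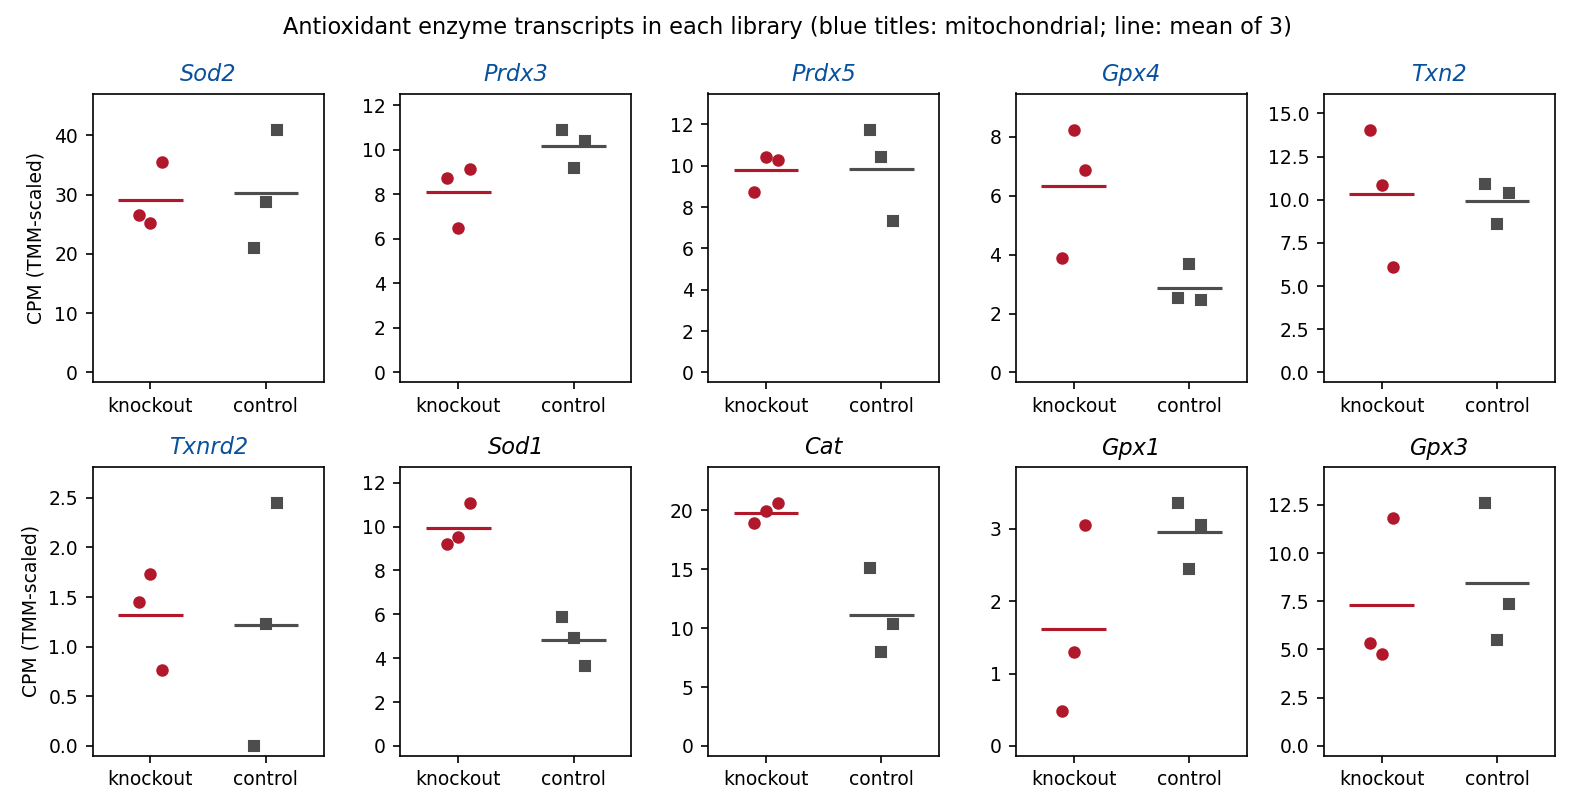
TMM-scaled CPM of each of the 10 enzymes in the 3 knockout libraries (red circles) and the 3 control libraries (grey squares), with a line at the group mean and blue titles for the mitochondrial enzymes. The groups do not overlap for Cat, Sod1 and Gpx4, where knockouts are higher, and for Prdx3, where knockouts are lower.

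Cat encodes catalase, the peroxisomal enzyme that splits hydrogen peroxide into water and oxygen. It had 39, 46 and 54 counts in knockouts and 18, 13 and 17 in controls, on chromosome 2 (GRCm38 103453849 to 103485160, minus strand). Its level was 18.9, 19.9 and 20.6 CPM in knockouts and 15.1, 7.96 and 10.4 CPM in controls. Every knockout lay above every control, and the knockouts were close together (19.8 ± 0.853 CPM, SD, n = 3) while the controls were spread (11.1 ± 3.62 CPM, SD, n = 3). The log2 fold change was 0.87 ± 0.25 SE, which is 1.83-fold with a 95% interval of 1.30 to 2.58 (edgeR adjusted p = 0.00749). The call was lost without control 2, the lowest control, where the log2 fold change was 0.67 (edgeR adjusted p = 0.106), and it was not made by DESeq2 (adjusted p = 0.104).

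Sod1 encodes the copper and zinc superoxide dismutase of the cytosol and the intermembrane space. It lies on chromosome 16 (GRCm38 90220754 to 90226329, plus strand) and had 19, 22 and 29 counts in knockouts and 7, 8 and 6 in controls. The level was 9.20, 9.54 and 11.1 CPM in knockouts and 5.87, 4.90 and 3.67 CPM in controls, again without overlap. Its log2 fold change was 1.07 ± 0.36 SE, 2.11-fold with a 95% interval of 1.30 to 3.42 (edgeR adjusted p = 0.0266). The call rests on few counts: it held without control 1 (edgeR adjusted p = 0.0356) and was lost without control 2, without control 3 or without any 1 of the knockouts (edgeR adjusted p between 0.0618 and 0.144), and DESeq2 gave an adjusted p of 0.242. A processed pseudogene, Gm8566, has 97.8% identity with Sod1 over 465 bases and held 2, 1 and 3 counts in knockouts and 2, 3 and 0 in controls, so a few Sod1 reads could have been placed there.

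The promoters of Cat and Sod1 are shown because edgeR called these members, although DESeq2 did not. Each window runs from 250 bases before to 50 bases after the RefSeq start on GRCm38.p6, read 5′ to 3′ along the gene. It was searched on both strands for TGACNNNGC, the core of the antioxidant response element bound by NRF2, and for TGATGNAA, the core of the element bound by ATF4 with its partners. The Sod1 window (chr16:90220512-90220811, plus strand) held the first motif on the opposite strand, 56 bases upstream of the start and printed in capitals, and the Cat window (chr2:103485104-103485403, minus strand) held neither.
Sod1: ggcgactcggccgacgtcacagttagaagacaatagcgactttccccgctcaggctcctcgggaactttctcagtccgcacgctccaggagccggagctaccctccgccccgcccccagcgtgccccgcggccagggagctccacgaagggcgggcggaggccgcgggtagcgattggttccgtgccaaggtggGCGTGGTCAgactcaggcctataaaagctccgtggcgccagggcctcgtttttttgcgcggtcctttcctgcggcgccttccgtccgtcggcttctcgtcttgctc
Cat: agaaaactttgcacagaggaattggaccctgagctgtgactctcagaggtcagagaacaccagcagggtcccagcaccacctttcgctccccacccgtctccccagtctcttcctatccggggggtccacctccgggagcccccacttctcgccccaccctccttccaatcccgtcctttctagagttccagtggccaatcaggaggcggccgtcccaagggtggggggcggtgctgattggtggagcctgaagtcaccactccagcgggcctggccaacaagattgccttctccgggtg
The antioxidant response element core was present in 4071 of 32851 mouse promoter windows of this length, or 12.4%, and among the 10 members in the Sod1 window alone. The TGATGNAA core was present in 1304 windows, or 3.97%, and in 0 of the 13 windows of the members. A match is a run of letters and not a measured site.

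Sod2 encodes the manganese superoxide dismutase of the matrix and lies on chromosome 17 (GRCm38 13006846 to 13040063, plus strand). It had the most counts of the members, 55, 58 and 93 in knockouts and 25, 47 and 67 in controls. Its level was 26.6, 25.1 and 35.4 CPM in knockouts and 21.0, 28.8 and 40.9 CPM in controls, so that the groups overlapped across nearly their whole range. The log2 fold change was -0.08 ± 0.19 SE (edgeR adjusted p = 0.866), and its 95% interval of -0.45 to 0.30 leaves room for a change of up to 0.734-fold or 1.23-fold. Sod2 is the best counted of the 10, and the interval is the narrowest among the tested members.

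The peroxiredoxin system of the matrix is made of Prdx3 and Prdx5, which reduce peroxides, of Txn2, the thioredoxin that recharges them, and of Txnrd2, the selenoprotein reductase that recharges Txn2 from NADPH. Prdx3 (chromosome 19, 60864051 to 60874556, minus strand) had 18, 15 and 24 counts, or 8.72, 6.50 and 9.15 CPM, in knockouts, against 13, 15 and 17 counts, or 10.9, 9.18 and 10.4 CPM, in controls. All 3 knockouts were below all 3 controls by a narrow margin, and the difference did not pass the test (log2 fold change -0.31 ± 0.31 SE, 95% interval -0.91 to 0.30, edgeR adjusted p = 0.604). The direction of Prdx3 turned to 1.76 with no scaling beyond library size.

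Prdx5 (chromosome 19, 6906697 to 6910106, minus strand) had 18, 24 and 27 counts, or 8.72, 10.4 and 10.3 CPM, in knockouts, against 14, 17 and 12 counts, or 11.7, 10.4 and 7.33 CPM, in controls. The knockouts lay inside the range of the controls, with a fitted log2 change of 0.03 ± 0.30 SE (edgeR adjusted p = 0.970). Its exons share 409 bases, 19.1% of their total length, with Trmt112 on the opposite strand, which held 2, 0 and 0 counts in knockouts and 0, 3 and 0 in controls. Without a stated strand setting, reads from these shared bases cannot be assigned to either gene.

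Txn2 (chromosome 15, 77915047 to 77929006, minus strand) had 29, 25 and 16 counts, or 14.0, 10.8 and 6.10 CPM, in knockouts, against 13, 14 and 17 counts, or 10.9, 8.57 and 10.4 CPM, in controls. Knockouts were spread to both sides of the controls, with a mean of 10.3 ± 3.999 CPM in knockouts and of 9.95 ± 1.22 CPM in controls (SD, n = 3 each). Its log2 fold change was 0.03 ± 0.30 SE (edgeR adjusted p = 0.972). Txnrd2 (chromosome 16, 18426384 to 18479073, plus strand) was the least counted member, with 3, 4 and 2 counts in knockouts and 0, 2 and 4 in controls. That is 1.45, 1.73 and 0.762 CPM in knockouts against 0, 1.22 and 2.44 CPM in controls, a scaled ratio of 0.957 whose 95% Poisson interval runs from 0.304 to 3.27. A change of Txnrd2 was therefore not detectable at this depth.

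Glutathione peroxidases were represented by Gpx4, which reduces lipid peroxides in membranes, Gpx1, the abundant cytosolic form, and Gpx3, the secreted form. Gpx4 (chromosome 10, 80047166 to 80056439, plus strand) had 8, 19 and 18 counts in knockouts and 3, 6 and 4 in controls. Its level was 3.88, 8.24 and 6.86 CPM in knockouts and 2.51, 3.67 and 2.44 CPM in controls. The groups did not overlap, but knockout 1 lay just above control 2. The difference was not called by edgeR (log2 fold change 1.12 ± 0.43 SE, 95% interval 0.27 to 1.98, adjusted p = 0.0668, 0.0103 before adjustment). Of the mitochondrial members it had the largest fitted change. Near-identical copies of Gpx4 exist, Gpx4-ps2 with 99.7% identity over 733 bases and AC122253.3 with 95.1% over 510 bases; they were not analysed here, and the count of Gpx4 is uncertain to that extent.

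Gpx3 (chromosome 11, 54902453 to 54910377, plus strand) had 11, 11 and 31 counts, or 5.33, 4.77 and 11.8 CPM, in knockouts, against 15, 9 and 12 counts, or 12.6, 5.51 and 7.33 CPM, in controls. Knockout 3 and control 1 were high, the remaining libraries were close to each other, and the log2 fold change was -0.10 ± 0.34 SE (edgeR adjusted p = 0.898). Gpx1 (chromosome 9, 108338903 to 108340343, plus strand) had 1, 3 and 8 counts in knockouts and 4, 4 and 5 in controls. On the CPM scale this was 0.484, 1.30 and 3.05 in knockouts and 3.35, 2.45 and 3.05 in controls, and only knockout 3 reached the control range. The scaled ratio was 0.589 with a 95% Poisson interval of 0.246 to 1.40. With no low-count filter the test gave Gpx1 a fitted log2 change of -0.63 ± 0.65 SE (edgeR adjusted p = 0.770).

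**Figure D2:**
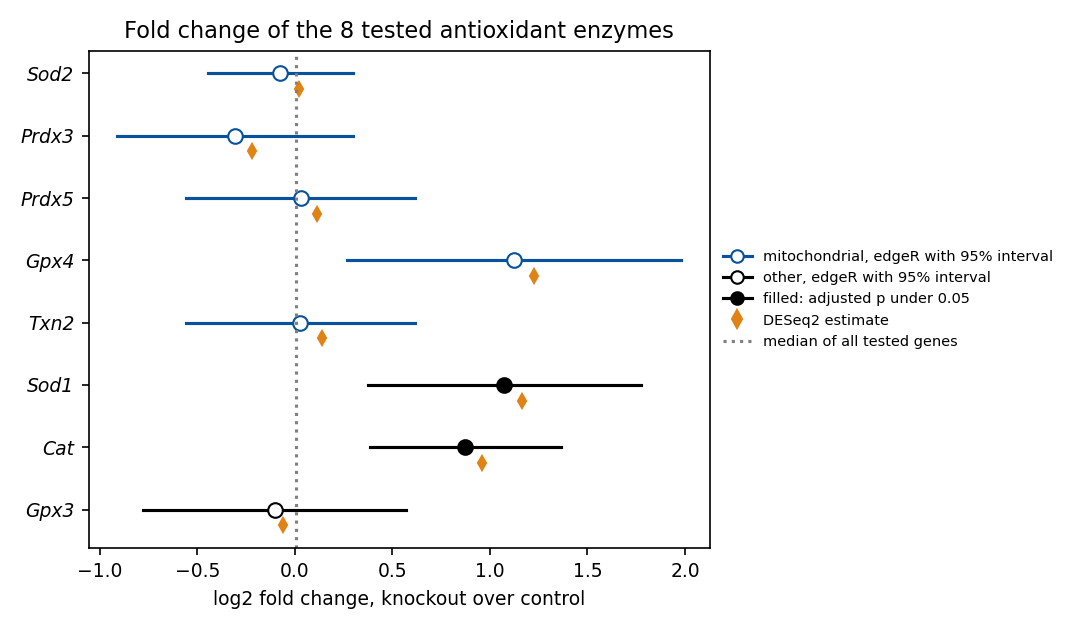
Log2 fold change of the 8 tested enzymes, knockout over control, from edgeR with its 95% interval (circles; blue for mitochondrial, black for other, filled where the adjusted p is under 0.05) and from DESeq2 (orange diamonds); the dotted line is the median of all tested genes. Cat at 0.87 and Sod1 at 1.07 are filled, Gpx4 at 1.12 has the widest interval, and the intervals of the other 5 include 0.

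Among the 8 tested members, the groups did not overlap for 4, with knockouts higher for Cat, Sod1 and Gpx4 and lower for Prdx3. Over all tested genes, groups without overlap made up 15.2% with knockouts higher and 14.1% with knockouts lower. The median log2 fold change was 0.03 over the 5 tested mitochondrial members and 0.87 over the 3 tested other members, against 0.004 over all tested genes. These medians describe few genes and carry no test. Sod1 and Gpx4 entered them through the knockout libraries alone. Gpx1, at a log2 fold change of -0.63 with no low-count filter, and Txnrd2, at 0.08, are left out of them. The medians and the counts without overlap therefore describe the tested members and support no direction for either set of members. Scaled by library size alone, the median of all genes was 2.06, all 8 members were called higher, and the fold changes given here are relative to the bulk of nuclear transcripts.

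Summed over the 6 mitochondrial members, the level was 65.0 ± 3.16 CPM in knockouts and 64.3 ± 8.72 CPM in controls (SD, n = 3 each), from 456 counts in knockouts and 290 in controls. Over the 4 other members it was 38.7 ± 6.85 CPM in knockouts and 27.4 ± 8.42 CPM in controls (SD, n = 3 each), from 274 counts in knockouts and 118 in controls. The log2 ratio of mitochondrial to other counts needs no scaling. It was 0.904, 0.822 and 0.561 in knockouts and 0.628, 1.57 and 1.60 in controls. Control 1 lay within the range of the knockouts while controls 2 and 3 lay well above it, so that the means, 0.76 ± 0.18 in knockouts and 1.27 ± 0.55 in controls (SD, n = 3 each), differed by -0.50, less than the spread of the controls. The difference was -0.59 without Prdx5 and Gpx4, the mitochondrial members with forms elsewhere, -0.62 without Gpx1, and -0.08 when every member had equal weight as a mean of log2 CPM. A difference without Sod1, part of whose protein lies in the intermembrane space, was not computed. No test was made of the ratio, since the genes were chosen with results known.

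As a share of all member counts, Cat took 19.2% ± 1.21 in knockouts and 12.1% ± 3.48 in controls (SD, n = 3 each). Sod1 took 9.58% ± 0.121 in knockouts and 5.30% ± 1.37 in controls (SD, n = 3 each). Sod2 remained the largest share, with 27.9% ± 2.66 in knockouts and 32.9% ± 9.79 in controls, and Prdx3 took 7.84% ± 1.18 in knockouts and 11.1% ± 0.524 in controls (SD, n = 3 each).

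Levels of different genes were compared per length, as CPM per kilobase of the union of annotated exons. They are levels in RNA of crude mitochondria and not in whole heart. In control libraries Prdx3 was highest, at 6.87 CPM per kilobase, followed by Gpx3 at 4.67, Prdx5 at 4.59, Cat at 4.26 and Sod2 at 3.02. Below these were Txn2 at 2.36, Gpx1 at 2.05, Gpx4 at 1.67, Sod1 at 1.21 and Txnrd2 at 0.278. In knockout libraries Cat was first, at 7.58 CPM per kilobase, with Prdx3 at 5.50, Prdx5 at 4.58, Gpx3 at 4.03 and Gpx4 at 3.67. Below these were Sod2 at 2.91, Sod1 at 2.50, Txn2 at 2.45, Gpx1 at 1.12 and Txnrd2 at 0.299. By this length, in knockouts the libraries of Cat lay above those of every other enzyme, and in controls those of Txnrd2 lay below those of every other enzyme; all other neighbours in either order overlapped between libraries. The order depends on the length used. For Prdx3, Cat and Sod1 the exon union and the longest transcript have the same length, so a change between them does not check the levels of these genes. With the longest transcript in place of the exon union, Gpx4 in knockout 2 was at 8.28, above every knockout library of Cat, and Gpx3 in knockout 3 was at 7.41, above Cat in knockout 1 at 7.23, so that Cat no longer stood apart. The group means by that length moved too: Sod2 was at 4.96 in knockouts and 5.16 in controls, Txn2 at 5.04 in knockouts and 4.86 in controls, and Gpx4 at 6.36 in knockouts and 2.89 in controls (all CPM per kilobase).

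**Figure D3:**
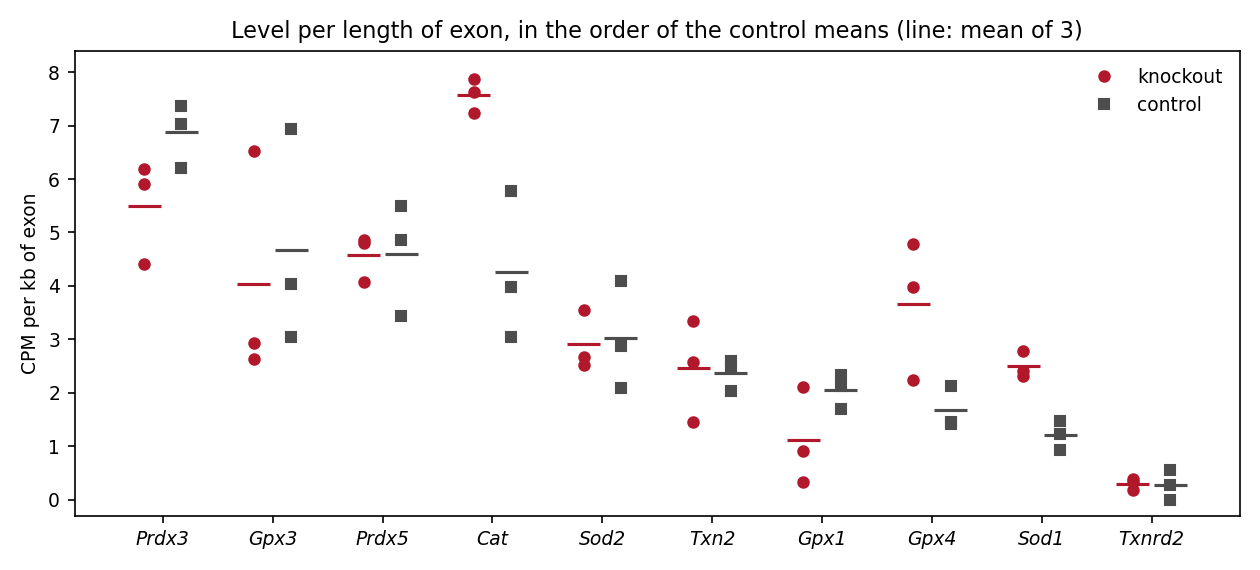
Level of each enzyme as TMM-scaled CPM per kilobase of exon in the 3 knockout libraries (red circles) and the 3 control libraries (grey squares), ordered by the control mean, with a line at each group mean. Prdx3 leads in controls at 6.87, Cat leads in knockouts at 7.58, and Txnrd2 is lowest in both groups, under 0.3.

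The wider redox system was read from 7 lists that hold 116 genes besides the members, of which 41 were tested. Of these 8 were higher in knockouts, 0 were lower and 33 were not called by edgeR, with a median log2 fold change of 0.17. The shares over all tested genes, 6.66% called higher and 6.78% lower, stand beside these counts and those of each list below. At an unadjusted edgeR p under 0.05, 10 of the 41 genes were higher and 2 lower, beside the 12.2% and 12.9% of all tested genes given above. Of the 41 tested genes, 24 were over the low-count minimum in no control library, and so were 6 of the 8 called ones, Prdx6, Srxn1, Gsto1, Slc25a39, Mthfd2 and Ftl1. Genes that entered the test through the knockout libraries alone had to be high there, so the counts of calls and the medians of the lists describe the tested genes and support no direction for the lists. Over all genes, 1853 of the 3363 tested and 143 of the 224 called higher were over the minimum in no control library. The lists overlap, and DESeq2 called 5 of the 116 higher and 0 lower. Among the other peroxidases and thioredoxins, 3 of 6 tested genes were higher. Txnip, the protein that binds and restrains thioredoxin, had 91, 99 and 133 counts in knockouts and 27, 21 and 37 in controls (log2 fold change 1.27 ± 0.19 SE, edgeR adjusted p = 1.66e-08). Prdx6, the peroxiredoxin that also handles phospholipid peroxides, had 33, 30 and 28 counts in knockouts and 12, 10 and 6 in controls (log2 fold change 1.04 ± 0.31 SE, edgeR adjusted p = 0.0117). Srxn1, the sulfiredoxin that repairs overoxidised peroxiredoxins, had 15, 8 and 9 counts in knockouts and 1, 1 and 3 in controls, with a fitted log2 change of 1.97 ± 0.55 SE (edgeR adjusted p = 0.00824). Txnip was called in all 6 fits that left out 1 library. Prdx6 lost its call without control 3, knockout 1 or knockout 2 (highest edgeR adjusted p 0.164), and Srxn1 lost it without knockout 1 (0.153) and did not pass the low-count filter without any 1 of the controls. DESeq2 called neither of them.

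Of the glutathione genes, 2 of 5 tested were higher. Gsto1, an omega-class glutathione transferase, had 30, 31 and 37 counts in knockouts and 4, 2 and 11 in controls, a fitted log2 change of 1.86 ± 0.35 SE (edgeR adjusted p = 1.01e-05) that was 2.68 without control 3. Slc25a39, which carries glutathione into the matrix, had 31, 27 and 31 counts in knockouts and 3, 7 and 9 in controls (log2 fold change 1.57 ± 0.35 SE, edgeR adjusted p = 2.22e-04). Both kept their calls when any 1 library was left out. Slc7a11, the cystine importer, named after its values were seen, had 13, 3 and 4 counts in knockouts and 0 in each control. Most of its knockout counts came from knockout 1. It was under the filter and was called by DESeq2 (adjusted p = 0.0481). With the controls set to 3 counts in all, it was 4.25-fold higher, and the lower limit of its Poisson interval was 3.15-fold.

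In the NADPH supply list, 1 of 7 tested genes was higher. That was Mthfd2, a matrix enzyme of folate metabolism, with 18, 15 and 34 counts in knockouts and 0 in every control. Mthfd2 was 14.3-fold higher with the controls set to 3 counts in all, and the lower limit of its Poisson interval was 11.3-fold. Nnt, the transhydrogenase that feeds matrix NADPH from the proton gradient, had a fitted log2 change of 0.01 ± 0.15 SE (edgeR adjusted p = 0.970), and Idh2, the matrix isocitrate dehydrogenase, one of -0.31 ± 0.15 SE (0.185); both were named after their values were seen. In the NRF2 list, 2 of 11 tested genes were higher, Srxn1 and Ftl1, the ferritin light chain. Ftl1 had 26, 26 and 24 counts in knockouts and 5, 8 and 10 in controls (log2 fold change 1.07 ± 0.34 SE, edgeR adjusted p = 0.0199). Its call held without control 3 or knockout 3 and was lost without each other library (highest edgeR adjusted p 0.114), and DESeq2 did not make it (adjusted p = 0.192).

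The selenoprotein list, which includes the selenoprotein members, had 0 of 7 tested genes called by edgeR or DESeq2, with 1 higher and 1 lower at an unadjusted edgeR p under 0.05, and a median log2 fold change of -0.10. The oxidation repair list had 0 of 5 tested genes called by edgeR or DESeq2, 0 at an unadjusted edgeR p under 0.05, and a median of 0.04. In the peroxisome list, which leaves out Cat, 1 of 9 tested genes was higher and the median was 0.21.

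**Figure D4:**
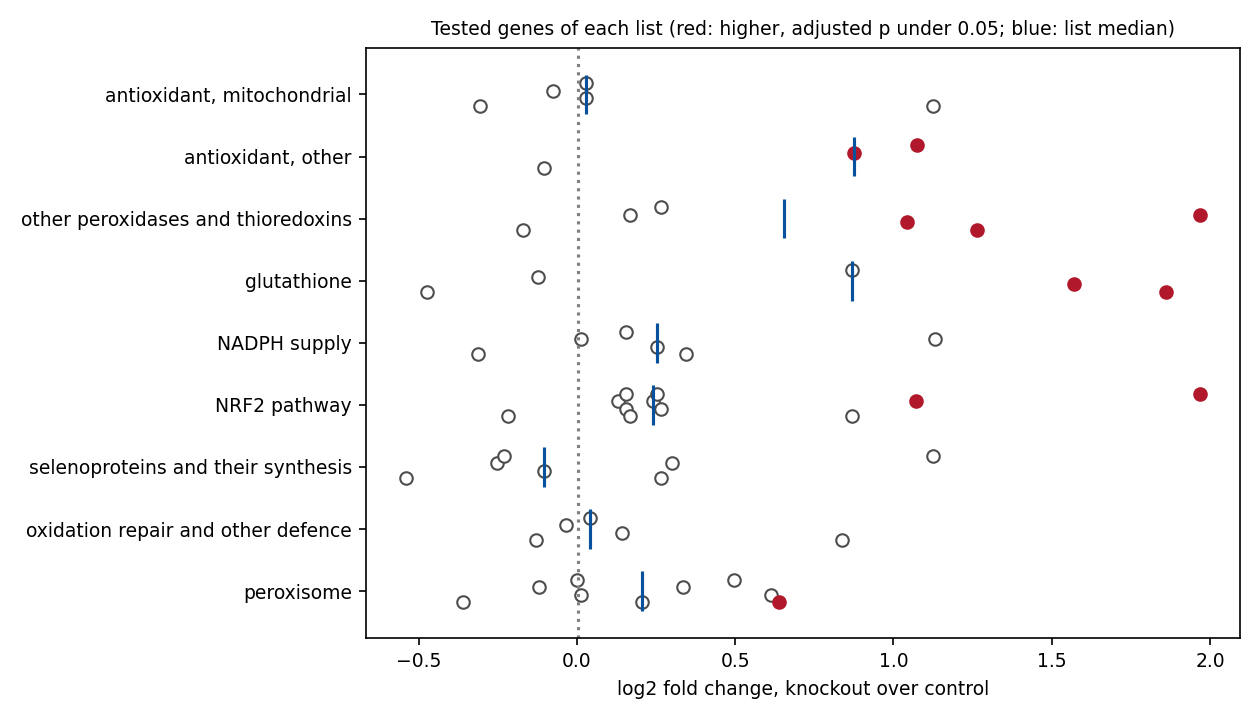
Log2 fold change, knockout over control, of each tested gene in the 2 groups of members and the 7 related lists, with filled red circles for genes called higher, blue bars for the list medians and a dotted line at the median of all tested genes. Mthfd2 is left off because no control had a count, some genes stand in more than 1 list, and all called genes lie to the right of the dotted line.

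The transcripts whose levels followed Cat most closely over the 6 libraries were sought among 1639 tested genes of at least median expression, by Pearson's r of log2 CPM. Zfr, a zinc finger RNA-binding protein, had an r of 0.983, Kremen1, a receptor that dampens Wnt signalling, one of 0.981, and Acot2, an acyl-CoA thioesterase of mitochondria, one of 0.978. Kremen1 had 40, 40 and 45 counts in knockouts and 16, 11 and 16 in controls, Zfr had 26, 33 and 35 in knockouts and 12, 11 and 12 in controls, and Acot2 had 33, 30 and 45 in knockouts and 6, 2 and 4 in controls. The points are the same 6 libraries in 2 groups, so genes that differ between the groups score high, and the r values describe these libraries alone.

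Markers of the cell types of the heart were read beside the enzymes. Their summed level lay below the control range in every knockout for cardiomyocytes (above), for fibroblasts (8 of 8 detected, 592 to 667 CPM in knockouts and 697 to 753 CPM in controls), for endothelial cells (7 of 7, 78.0 to 96.3 CPM in knockouts and 112 to 124 CPM in controls), for macrophages (8 of 8, 17.9 to 26.3 CPM in knockouts and 50.8 to 76.3 CPM in controls) and for smooth muscle (4 of 4, 45.1 to 68.9 CPM in knockouts and 70.3 to 88.8 CPM in controls). Red blood cell markers, of interest because red cells are rich in Cat, Sod1 and Prdx2, overlapped between the groups at 58.5 to 109 CPM in knockouts and 56.3 to 125 CPM in controls. Adipocyte markers were near the floor, with 0 to 4.34 CPM in knockouts and 0 to 0.838 CPM in controls, and Adipoq, Plin1 and Lep were at 0 in all libraries. No tested marker was called higher by edgeR or DESeq2 or had an unadjusted edgeR p under 0.05 with knockouts higher. Called lower by edgeR were 5 of 9 cardiomyocyte, 2 of 8 fibroblast, 1 of 6 endothelial and 3 of 3 macrophage markers, beside 6.78% of all tested genes. DESeq2 called 3 cardiomyocyte, 1 fibroblast, 0 endothelial and 2 macrophage markers lower. When 1 library was left out, edgeR called 4 or 5 cardiomyocyte and 2 or 3 macrophage markers lower. The fibroblast count was 3 without control 2 and 1 without each other library, and the endothelial call held without control 3 and was lost without each other library. With no scaling the fitted medians of the tested lists lie above 0. The part of cell make-up in the values of the enzymes was not tested.

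The authors' deposited table of the same comparison holds 9 of the 10 members. In the authors' deposited table, 2 of these have a false discovery rate under 0.05, Cat with a log2 fold change of 0.99 and a rate of 0.00199, and Sod1 with 1.18 and 0.0118. For Gpx4 the authors' deposited table gives a log2 fold change of 1.23 and a rate of 0.0849.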

How the data were processed

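RNA of crude heart mitochondria was isolated with the miRNeasy kit, made into TruSeq libraries and sequenced paired-end on a MiSeq, per the labels' protocols. HISAT 0.1.6, edgeR 3.11.2, R 3.2.0 and featureCounts 1.3.5-p4 are listed with the build GRCm38 in the submitters' processing notes. The settings for strand and for multiply aligned reads, not given in the sources used here, bear on overlapping genes and copies. Raw counts, whole numbers for each gene, were deposited for each library. A second deposited set, normalised by the authors and treated as a score, was not used. The authors' deposited table gives log2 fold changes, p-values and false discovery rates, per the file headers, for 6319 genes.

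Symbols were matched to 37570 of 39142 nuclear identifiers, and all 174 genes of the lists were found. Positions and lengths are from GENCODE M21 (GRCm38). Knockout was compared with control by edgeR 4.0.16 in R 4.3.3 (quasi-likelihood, robust, TMM, total library sizes, no covariate) over 3363 genes left by filterByExpr (minimum count 10, total 15), 2-sided, with Benjamini-Hochberg adjustment over all of them and a threshold of 0.05. The SE is that implied by the quasi-likelihood F. A fold against a group with no counts uses 3 counts over that group as a floor. Such a fold takes the counts of the other group as exact, so it is not a lower limit. Poisson intervals and floors use counts pooled over the libraries of a group, so they reflect counting error alone and leave out the spread between mice. No molecular identifiers mark independent molecules, so the counting error may itself be larger than they give. Sequence copies were sought among annotated transcripts at 90% identity or more over at least 250 bases.

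The members and all lists were chosen with earlier results of these data known. Named genes were all members, Polrmt, up to 4 called genes per list by smallest adjusted p, and the 3 genes most correlated with the member of smallest adjusted p; others are said to be named after their values were seen. Of the called genes of the lists, 1 is not reported here. Within groups, libraries differed beyond sampling noise over nuclear genes, the 5 loci that held most nuclear counts included (chi-square per degree of freedom 1.30 to 6.26). The alternatives were a replicate block, DESeq2 1.42.0, median-of-ratios size factors, no low-count filter, libraries without mtDNA, no scaling and leaving out each library, with other sums and lengths for the ratio and the levels. The procedure was run on simulated data in which 200 nuclear genes were changed. The simulation did not carry the difference in mtDNA share between the groups, so it does not check the scaling or the filter under that difference.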

Additional observations from a re-analysis of the deposited data

How the results depend on the processing

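With no scaling beyond library size, 3325 genes were higher and 18 lower, 8 members and 41 genes of the related lists were called, and log2 fold changes were 1.98 for Sod2, 1.76 for Prdx3, 2.10 for Prdx5, 3.17 for Gpx4, 2.095 for Txn2 and 1.96 for Gpx3; 99.5% of calls were then higher, against 49.6% with TMM, 62.6% without the low-count filter and 60.0% with DESeq2. DESeq2 called 108 genes higher and 72 lower, 0 members and 5 genes of the lists, with log2 fold changes of 0.96 for Cat, 1.17 for Sod1 and 0.02 for Sod2. Without the low-count filter 117 genes were lower, Sod2 was at 0.05005 and Gpx3 at 0.0231. With mtDNA removed from the libraries, the members called stayed at 2 of 7 tested and Sod2 was at 3.15e-05 (log2). Leaving out 1 library gave 140 to 181 genes higher, 136 to 171 lower, 0 to 2 members called, 4 to 8 list genes called, and log2 fold changes of -0.25 to 0.21 for Sod2, -0.16 to 0.15 for Prdx5, 0.89 to 1.35 for Gpx4, -0.24 to 0.34 for Txn2, 0.90 to 1.21 for Sod1, -0.67 to 0.22 for Gpx3 and 0.67 to 1.11 for Cat; the difference in the mitochondrial to other ratio was then -0.82 to -0.34, and -0.078 as a mean of log2 CPM. The causes of these changes were not tested. Same-numbered libraries of the groups showed no sign of varying together (correlations -0.02, 0.018 and 0.022). At these low counts the check cannot exclude that the numbers pair them. With the replicate block 212 genes were higher, 217 lower and 2 members called. Of the counts per list under the alternatives, 54 moved by more than 1.5 times and 282 did not. Many of the 282 were counts of 0 that stayed at 0, among them those of the adipocyte markers, with 0 genes tested. With the longest transcript, 9 of 20 levels per length moved, and those of Prdx3, Cat and Sod1 could not move. These tallies therefore do not measure how stable the results are. Genes at a few counts per library, Gpx1 and Txnrd2 among the members, are limited by depth.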
